A study of Mus musculus with 27 samples.

Results

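The transcripts of 8 transcription factors that govern fat cell formation and lipid metabolism were followed through muscle injury and repair. They were taken by gene name, and each had 1 entry among the 55852 entries of the table of injured muscle and among the 55677 entries of the table with control muscle. The samples were 27 bulk RNA-seq libraries of gastrocnemius muscle, which the deposited description also calls thigh muscle, from male mice. WT mice (C57BL/6J) and mice with a global loss of Gsdme, the gene of the pore-forming protein gasdermin E, were injected with cardiotoxin (CTX), a snake venom toxin that lyses myofibres, and each genotype gave 3 libraries at each of 4 times, day 1 (D1), day 4 (D4), day 7 (D7) and day 14 (D14). The remaining 3 libraries came from the uninjured contralateral muscle of WT mice and are called control, and no uninjured KO muscle was analysed here. The titles of the mutant samples say KO and their genotype field says knockdown, so KO means the libraries with that title, and the age of the mice was not given in the sources used here. The deposited values are TPM, a relative transcript level corrected for gene length that adds up to a common total in every library. Depth cannot be read from TPM and is unknown.

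The factors belong to 3 families. C/EBPβ (Cebpb) and C/EBPδ (Cebpd) are basic leucine zipper proteins that act early in adipogenesis and also drive acute phase genes in inflamed tissue, and C/EBPα (Cebpa) acts later in fat cells and is also a factor of myeloid cells. PPARγ (Pparg) is the nuclear receptor required for adipocyte formation, and its relatives PPARα (Ppara) and PPARδ (Ppard) act on genes of fatty acid oxidation, with PPARδ prominent in skeletal muscle. SREBP-1 (Srebf1) and ChREBP (Mlxipl) turn on fatty acid synthesis in response to insulin and to glucose, respectively. In injured muscle, fibro-adipogenic progenitors are the resident cells that can become adipocytes.

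The promoters of 3 members are printed because these genes carry the results that follow: Cebpa and Cebpb are the members with the widest spread of levels, and Pparg has a start of its own for the adipocyte form. The sequences are from RefSeq on GRCm38.p6, run 5′ to 3′ on the plus strand and hold the 250 bases before a transcription start. Capitals mark matches on either strand to TTGCNNAA (a C/EBP site), TGACG (the core of a cAMP response element), TATAAA or CACGTG (an E-box). Matches are descriptions of letters and were not shown to be bound.
Cebpb, chr2:167688665-167688914: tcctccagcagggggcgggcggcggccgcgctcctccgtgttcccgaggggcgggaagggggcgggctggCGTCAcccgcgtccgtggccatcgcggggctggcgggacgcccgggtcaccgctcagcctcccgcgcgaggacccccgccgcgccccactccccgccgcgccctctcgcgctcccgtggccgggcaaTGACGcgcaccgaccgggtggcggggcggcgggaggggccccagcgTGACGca
Cebpa, chr7:35119043-35119292: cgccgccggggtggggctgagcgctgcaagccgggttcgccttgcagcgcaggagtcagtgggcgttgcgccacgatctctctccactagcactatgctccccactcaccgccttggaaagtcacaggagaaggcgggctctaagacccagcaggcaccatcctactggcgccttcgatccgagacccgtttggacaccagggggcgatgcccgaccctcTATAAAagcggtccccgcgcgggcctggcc
Pparg, chr6:115421816-115422065: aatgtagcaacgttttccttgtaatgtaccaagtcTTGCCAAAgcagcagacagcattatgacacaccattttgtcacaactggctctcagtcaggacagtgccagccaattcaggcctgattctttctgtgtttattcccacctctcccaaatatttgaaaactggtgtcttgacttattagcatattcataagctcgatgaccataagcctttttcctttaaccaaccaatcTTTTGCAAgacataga
The Cebpb window holds 3 matches to TGACG, which begin 180, 53 and 7 bases before the start, and TGACG occurs in 17.8% of the 32851 mouse promoter windows of the same kind (250 bases before to 50 after a start). The Cebpa window holds 1 TATAAA, 30 bases before the start (12.4% of windows). The Pparg window holds 2 matches to TTGCNNAA, 215 and 16 bases before the start (9.56% of windows). The other 2 windows of Pparg hold no match to TTGCNNAA. Of the 2 Mlxipl windows, 1 holds a CACGTG 98 bases before the start (6.02% of windows), and the matches in capitals do not overlap each other in the printed sequences. A window was matched for 7 of the 8 members, and none was printed for Cebpd.

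In GENCODE M21 on GRCm38, the build named by the labels, Cebpa (chr7:35119293-35121928), Cebpb (chr2:167688915-167690418) and Cebpd (chr16:15887286-15891031) are compact genes of 1 or 2 exons on the plus strand. Pparg (chr6:115360951-115490399), Ppara (chr15:85734983-85802819), Ppard (chr17:28232700-28301474) and Mlxipl (chr5:135089890-135138382) lie on the plus strand and Srebf1 (chr11:60199089-60222581) on the minus strand. Their longest transcripts have from 8 to 19 exons. An annotated gene on the opposite strand overlaps Pparg, Cebpa, Cebpb, Cebpd, Srebf1 and Mlxipl, and none overlaps Ppara or Ppard. As the strand used in counting is not stated, reads of the overlapping genes cannot be told apart from those of these 6 members.

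The libraries differed in composition. Between 11785 and 14704 genes reached 1 TPM in a library, and between 25.4% and 61.4% of the TPM belonged to the 50 most abundant genes. Gsdme itself was lower in every KO than in every WT library at each time up to D7 and overlapped on D14 (1.27 to 1.96 TPM in KO and 1.46 to 2.26 in WT), so the labels could not be checked by it on D14. Some libraries stood apart. WT D1 replicate 3 had the lowest macrophage and neutrophil marker levels of its group. KO D4 replicate 2 had 12961 genes of at least 1 TPM, against 14380 and 13960 in the other KO D4 libraries. KO D7 replicate 2 had 12849 such genes, against 13855 and 13816 in the other KO D7 libraries. The WT D1 libraries are in both tables, which were quantified separately, and r between the 2 versions of a library was at least 0.997 across genes on log2(TPM + 1). The study describes 2 sequencing batches, and the labels do not say to which the WT D1 libraries belong, so batch and group cannot be told apart in comparisons that use them. The labels do not say that replicates came from separate mice, and p-values then measure only the spread between libraries.

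All 8 factors were detected in injured muscle, and 7 of them were at or above 1 TPM in all 24 libraries. On the TPM scale Cebpb had the highest group mean, 110.5 ± 34.2 (SD, n = 3) in KO D1, and the mean in WT D7 was 13.8 ± 3.29. Cebpa ranged from 5.67 ± 1.85 in WT D14 to 50.2 ± 8.16 in KO D1, a ratio of group means of 8.85, against 8.02 for Cebpb. Ppara was the lowest, with group means from 1.23 ± 0.566 in WT D4 to 5.62 ± 0.996 in WT D14, and it was under 1 TPM in 4 of 24 libraries. Pparg was also low, with every injured library between 2.64 and 8.96 TPM and a ratio of group means of 1.97. Ppard changed least, from 15.8 ± 0.535 in KO D14 to 25.3 ± 3.42 in KO D1. Group means of Srebf1 were between 11.01 ± 1.53 (WT D14) and 26.4 ± 2.46 (WT D4), those of Cebpd between 7.91 ± 0.97 (WT D14) and 22.7 ± 5.66 (WT D1), and those of Mlxipl between 12.8 ± 9.16 (WT D4) and 38.9 ± 0.45 (KO D14). In the order of group means, nearly all neighbours overlapped. The exceptions were Cebpb, where KO D1, WT D1 and WT D4 followed each other without overlap, WT D14 at the bottom for Cebpa, KO D14 at the bottom for Ppard, KO D14 at the top for Mlxipl, and the 2 D4 groups above all others for Srebf1.

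**Figure D1:**
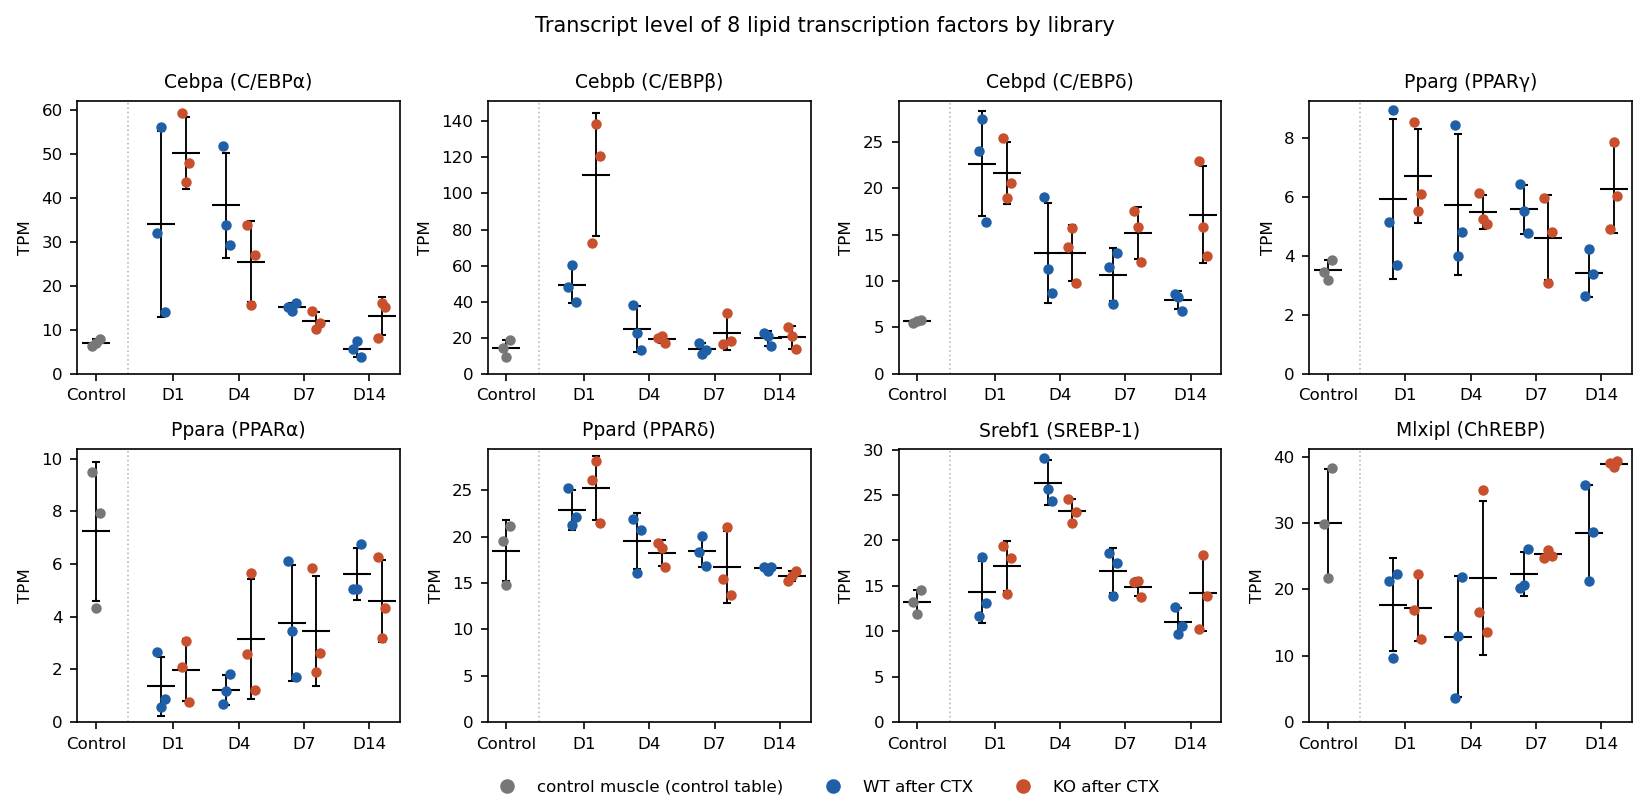
TPM of each factor (vertical axis, from 0) in control muscle and on D1, D4, D7 and D14 after CTX; each point is 1 library, and bars give the mean and SD of 3 libraries. Cebpb and Cebpd are highest on D1, the Srebf1 panel peaks on D4 (24.3 to 29.1 TPM in WT), and Ppara and Mlxipl are higher late than early; control values come from the other table.

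To see how injury changed the factors, WT D1 muscle was compared with control muscle within the control table. The 3 C/EBP genes rose and Ppara fell, whereas Pparg, Ppard, Srebf1 and Mlxipl were not called. Differences are on the log2(TPM + 1) scale, and a gene is called at an adjusted p under 0.05 (limma, Benjamini-Hochberg over all 13041 genes tested). Of all genes, 61.1% were called, 55.4% higher and 5.64% lower, and the median difference of all genes was 0.66. Of the 8 members, 3 were called higher and 1 lower, with a median of 0.43.

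Cebpd was 5.44, 5.67 and 5.81 TPM in the control libraries and 24.1, 27.5 and 16.4 TPM in the WT D1 libraries. The groups were far apart, and the difference was 1.80 (SE 0.22, adjusted p = 0.00137). Cebpb was 14.5, 9.35 and 18.6 TPM in control and 47.5, 59.4 and 38.6 TPM in WT D1, again without overlap (difference 1.74, SE 0.27, adjusted p = 0.00219). For Cebpa the control libraries were 6.40, 6.94 and 7.91 TPM and the WT D1 libraries 32.1, 56.2 and 14.1 TPM. All 3 injured libraries were above control, but replicate 3 was well below the other two, and the difference was 1.92 (SE 0.42, adjusted p = 0.00603). Relative to the median of all genes, the differences were 1.26 for Cebpa, 1.07 for Cebpb and 1.14 for Cebpd. As these are bulk samples, more cells of a type and more RNA per cell cannot be told apart.

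Markers of infiltrating cells moved with the C/EBP genes. The summed TPM of 8 macrophage markers was 178, 169 and 140 in control and 952, 1530 and 484 in WT D1, and that of 7 neutrophil markers was 4.99, 4.06 and 2.04 in control and 279, 619 and 57.9 in WT D1. All 8 macrophage markers and all 5 neutrophil markers tested were called higher. Replicate 3, the lowest WT D1 library for Cebpa, Cebpb and Cebpd, was also the lowest for both sums. The 8 myofibre markers summed to 156800, 159300 and 146500 TPM in control and 92730, 76210 and 154000 TPM in WT D1, with 2 called lower. The part of cell composition in the rise of the C/EBP genes was not tested.

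Ppara was 9.48, 4.32 and 7.94 TPM in control and 2.59, 0.59 and 0.84 TPM in WT D1. Each injured library was below each control library, and the difference was -1.86 (SE 0.37, adjusted p = 0.00454). Its relatives were not called. Pparg was 3.47, 3.19 and 3.88 TPM in control and 5.20, 8.96 and 3.68 TPM in WT D1, with replicate 3 inside the control range. Ppard was 19.6, 14.8 and 21.1 TPM in control and 25.3, 21.3 and 21.9 TPM in WT D1, which is just without overlap. Srebf1 overlapped between control (13.2, 11.9 and 14.5 TPM) and WT D1 (11.6, 18.0 and 13.01 TPM). Mlxipl was 29.9, 21.7 and 38.2 TPM in control and 21.3, 9.69 and 22.0 TPM in WT D1, with lower levels in injury but overlapping libraries (adjusted p = 0.0698). With the replicate number as a block Mlxipl was called too (adjusted p = 0.0186), which made 5 members.

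The result for the other 4 members depended on the scaling. The median gene rose by 0.66 in TPM as deposited, and 90.8% of all calls were higher, against 48.9% with median-of-ratios scaling, 48.9% with quantile normalization and 71.5% with the 50 most abundant genes removed. Cebpa, Cebpb and Cebpd remained higher in these 3 settings (differences from 0.98 to 1.49) and Ppara lower (from -2.57 to -2.38), all called. Mlxipl was called lower in all 3 (from -1.52 to -1.30, adjusted p from 0.0202 to 0.0349). Srebf1, at 0.08 in TPM as deposited, was -0.66 with median-of-ratios (adjusted p = 0.0109), -0.69 with quantile (adjusted p = 0.013) and -0.42 with abundant genes removed (adjusted p = 0.0613). Ppard, at 0.30, became -0.45, -0.43 and -0.20, and Pparg, at 0.55, became -0.10, -0.25 and 0.13, in that order of settings and without a call.

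**Figure D2:**
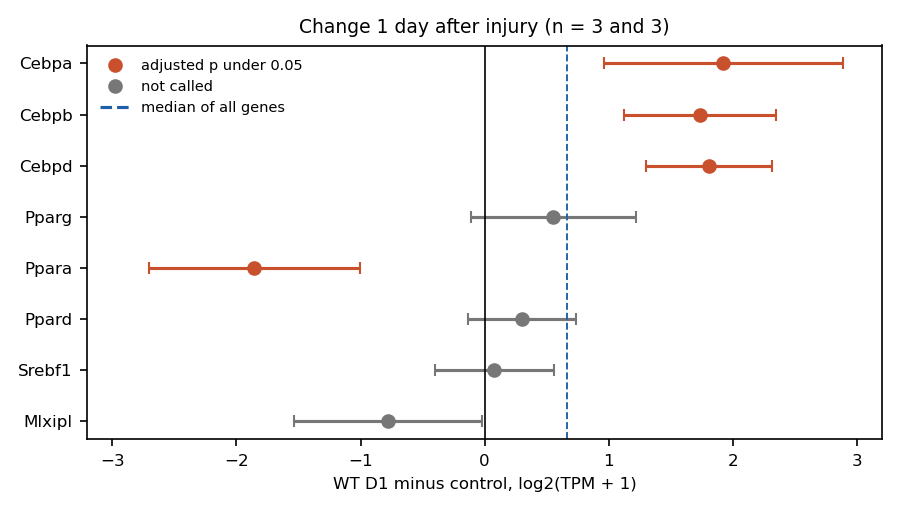
Difference between WT D1 and control for each factor on the log2(TPM + 1) scale (horizontal axis), with its 95% confidence interval; orange points are called. The 3 C/EBP genes lie above the dashed median of all genes (0.66) and Ppara lies at -1.86.

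Genes linked to the factors were counted on the same comparison, in which 55.4% of all genes were called higher and 5.64% lower. Of 7 tested acute phase genes linked to C/EBPβ and C/EBPδ, 6 were called higher and 0 lower (median 1.61), among them Saa3, an acute phase apolipoprotein listed at 0, 0.22 and 0 TPM in control and at 17.0, 25.1 and 40.9 TPM in WT D1. Lcn2, the gene of an iron-sequestering protein of neutrophils and inflamed tissue, had a difference of 5.05 (adjusted p = 0.000191), Socs3, a feedback inhibitor of cytokine signalling, one of 3.42 (adjusted p = 0.00155), and Stat3, a factor downstream of interleukin-6, one of 1.61 (adjusted p = 0.00164). Of 18 tested adipocyte targets of PPARγ and C/EBPα, 1 was called higher and 10 lower (median -0.95). The lowest p among the latter belonged to Pck1 (difference -2.45, adjusted p = 0.00257), the gluconeogenic enzyme that also serves glyceride synthesis in fat, followed by Aqp7, the adipocyte glycerol channel (-1.01, adjusted p = 0.00302), and Gpd1, which makes glycerol phosphate (-1.37, adjusted p = 0.00451). The members called lower include markers of adipocytes themselves. Adipoq, the gene of adiponectin, was 23.1, 32.4 and 30.3 TPM in control and 0.80, 1.95 and 16.8 TPM in WT D1. Replicate 3 again stood nearest to control. Of the 6 adipocyte markers tested, 5 were called lower.

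Of 17 tested PPARα and PPARδ targets, 4 were called higher and 9 lower (median -0.65). Pdk4, the kinase that shuts off pyruvate dehydrogenase, fell from 539, 371 and 444 TPM to 157, 130 and 84.5 TPM (difference -1.89, adjusted p = 0.00161), and Ucp3, a mitochondrial carrier of muscle, had a difference of -1.35 (adjusted p = 0.00267). Against that direction, Ucp2, a carrier abundant in immune cells, had a difference of 2.71 (adjusted p = 0.0031) and Plin2, a coat protein of lipid droplets, one of 2.63 (adjusted p = 0.00365). SREBP-1 and ChREBP targets split into 5 called higher and 3 lower of 14 (median -0.11), with Scd1, a fatty acid desaturase, at -2.13 (adjusted p = 0.000988) and Fads1, another desaturase, at 0.99 (adjusted p = 0.0138). Among 13 PPAR partners and coregulators, 3 were called higher and 2 lower (median 0.21). The latter were Ppargc1a (-1.35, adjusted p = 0.00966), the coactivator of mitochondrial genes, and Rxrg (-0.90, adjusted p = 0.0397), a partner receptor of the PPARs. Of 9 tested entries for other C/EBP, SREBP and ChREBP family members and the liver X receptors Nr1h2 and Nr1h3, which act on Srebf1, 8 were called higher and 0 lower (median 1.01), including Mlx, the dimer partner of ChREBP (1.36, adjusted p = 0.00235), and Srebf2, which controls cholesterol genes (1.42, adjusted p = 0.00308). The calls also include both entries of Ddit3, a C/EBP family member (7.275, adjusted p = 1.429e-05, and 1.555, adjusted p = 0.003081). Calls were 2 higher of 6 for SREBP processing genes (median 0.52), 4 higher of 11 for other activators of adipogenesis (median 0.20) and 4 higher of 8 for inhibitors of adipogenesis (median 0.80), with 0 lower in each. Of all genes, 55.4% were called higher and 5.64% lower, with a median of 0.66. The medians of the SREBP processing genes and other activators were thus below that of all genes.

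Next, neighbouring days were compared in the injured table (15718 genes tested). From D1 to D4 in WT muscle, Srebf1 rose and Cebpb and Cebpd fell (3 of 8 members called, against 19.8% of all genes, 14.6% higher and 5.27% lower). Srebf1 was 11.7, 18.2 and 13.1 TPM on D1 and 29.1, 25.7 and 24.3 TPM on D4. The D4 libraries were all higher, with a difference of 0.85 (SE 0.19, adjusted p = 0.00345), which was not called with library quality weights (0.68, adjusted p = 0.0834). Cebpb went from 48.2, 60.3 and 39.7 TPM to 38.3, 22.7 and 13.4 TPM, and the difference of -1.07 (SE 0.34, adjusted p = 0.0322) was no longer called when WT D1 replicate 1 or 2 or WT D4 replicate 2 or 3 was left out (adjusted p up to 0.165). Cebpd went from 24.1, 27.5 and 16.4 TPM to 19.0, 11.3 and 8.69 TPM, with overlap, and its call (difference -0.79, SE 0.27, adjusted p = 0.0463) was lost without WT D1 replicate 1 or 2, WT D4 replicate 2 or 3 (adjusted p = 0.191 without the last) or any of 10 libraries of other groups (adjusted p from 0.051 to 0.0556).

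Over the same step the SREBP-1 and ChREBP targets had 4 genes called higher and 2 lower of 15 (median 0.42, against 0.17 for all genes). Scd2, a desaturase, was 19.1, 27.8 and 21.2 TPM on D1 and 83.0, 70.0 and 65.7 TPM on D4 (difference 1.65, adjusted p = 0.00104). Scd1 also rose (1.76, adjusted p = 0.0106), whereas Gpam, an enzyme of triglyceride synthesis (-1.03, adjusted p = 0.00133), and Me1, malic enzyme (-1.22, adjusted p = 0.00528), fell.

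From D4 to D7 in WT muscle 2 members fell (12.3% of all genes were called). Cebpa went from 51.9, 33.8 and 29.3 TPM to 15.1, 14.2 and 16.1 TPM (difference -1.24, SE 0.38, adjusted p = 0.0388), and Srebf1 from 29.1, 25.7 and 24.3 TPM to 18.6, 13.9 and 17.5 TPM (difference -0.64, SE 0.19, adjusted p = 0.0364). In both genes the days did not overlap, but the calls were lost without WT D4 replicate 1 (adjusted p = 0.191 and 0.156) and without 4 or 3 other WT libraries of these days. For Srebf1 the difference was -0.36, -0.33 and -0.30 with median-of-ratios scaling, quantile normalization and the 50 most abundant genes removed, none of them called (adjusted p from 0.171 to 0.265). For Cebpa the last of these settings also ended the call (-0.91, adjusted p = 0.0697). From D7 to D14 Cebpa and Srebf1 were again called lower (31.8% of all genes were called, 2.90% of them higher, against 37.6% with median-of-ratios scaling). Cebpa reached 5.61, 7.55 and 3.85 TPM (difference -1.31, SE 0.38, adjusted p = 0.0177), near the control level in the other table. The call was lost without WT D7 replicate 1 (adjusted p = 0.0684) or WT D14 replicate 3 (adjusted p = 0.0956), and the difference of Cebpa was -0.79 with median-of-ratios scaling (adjusted p = 0.0587) and -0.76 with quantile normalization (adjusted p = 0.0701). Srebf1 reached 12.7, 9.71 and 10.6 TPM, and its difference of -0.55 (SE 0.19, adjusted p = 0.0339) was nearly that of the median gene (-0.45), became -0.00062 with median-of-ratios scaling, and was not called without WT D7 replicate 1 or 3 or WT D14 replicate 2 or 3 (adjusted p up to 0.137).

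In KO muscle, Cebpb fell most between D1 and D4. It was 72.4, 138 and 121 TPM on D1 and 20.1, 21.0 and 16.9 TPM on D4, a difference of -2.41 (SE 0.34, adjusted p = 0.000224). Ppard, at 26.1, 28.2 and 21.5 TPM on D1 and 19.3, 18.8 and 16.7 TPM on D4, was also called (difference -0.44, SE 0.15, adjusted p = 0.045), so that 2 of 8 members were called against 19.4% of all genes. The Ppard call was lost in 5 of 8 other settings and without KO D1 replicate 1 or 2, KO D4 replicate 2 or 3 or single libraries of later days (adjusted p up to 0.127). With each of the 3 other scalings, Srebf1 was called higher (0.51 to 0.65) and Cebpa lower (-0.95 to -0.80) on D4. From D4 to D7 limma called 0 members (2 at an unadjusted p under 0.05, Cebpa and Srebf1) and 0% of all genes, and from D7 to D14 it called 0 members (0 at an unadjusted p under 0.05) and 0.56% of all genes. At the unadjusted threshold were 9.89% of all genes from D4 to D7 and 19.3% from D7 to D14. Cebpa in KO muscle was 14.3, 10.3 and 11.6 TPM on D7 and 8.09, 16.1 and 15.1 TPM on D14, which overlap. The D7 to D14 change of Cebpa differed between genotypes by 1.38 (SE 0.53, unadjusted p = 0.0179, adjusted p = 0.809) and that of Pparg by 0.97 (SE 0.39, unadjusted p = 0.0229, adjusted p = 0.809). The D1 to D4 change differed by -1.34 for Cebpb (SE 0.48, unadjusted p = 0.0115) and by -1.33 for Cebpa (SE 0.53, unadjusted p = 0.0218), each with an adjusted p of 0.204. Differences of this kind were called for 0% of all genes in both steps. At an unadjusted limma p under 0.05 were 2 of 8 members in each step. The share of all genes was 3.09% for D7 to D14 and 23.3% for D1 to D4. The median difference of all genes was 0.27 and -0.38, respectively.

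Over the whole course, WT muscle lost C/EBP transcripts and gained Ppara. From D1 to D14 in WT, 1 member was called higher and 4 lower (45.7% of all genes were called, 5.15% higher and 40.5% lower, with a median of -0.44). Of all calls 11.3% were higher, against 42.8% with median-of-ratios scaling. Ppara went from 2.64, 0.55 and 0.89 TPM to 5.05, 5.04 and 6.77 TPM without overlap (difference 1.58, SE 0.44, adjusted p = 0.0074). The differences were -2.23 for Cebpa (adjusted p = 0.000165), -1.29 for Cebpb (adjusted p = 0.00492) and -1.38 for Cebpd (adjusted p = 0.000594). Cebpb was not called with 3 other scalings (adjusted p from 0.0695 to 0.136). Ppard was called lower at -0.44 (adjusted p = 0.0231), which is the change of the median gene, and its direction flipped with other scalings (0.13 with median-of-ratios, 0.21 with quantile and 0.038 with the 50 most abundant genes removed).

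In KO muscle 1 member was called higher and 3 lower from D1 to D14 (51.3% of all genes were called, 8.43% higher and 42.8% lower, with a median of -0.45). Mlxipl was 16.8, 22.4 and 12.5 TPM on D1 and 39.1, 38.5 and 39.3 TPM on D14. The D14 libraries were close together and all higher (difference 1.17, SE 0.43, adjusted p = 0.0305), although leaving out any single KO D14 library, or replicate 1 or 3 of KO D1, ended the call (adjusted p up to 0.121). Cebpb fell by 2.39 (adjusted p = 4.61e-05) and Cebpa by 1.90 (adjusted p = 0.000523) on the log2 scale. Ppard fell by 0.64 (adjusted p = 0.00181) in TPM as deposited, but its difference was 0.023 with quantile normalization. Ppara was called higher with the 3 other scalings (1.39 to 1.51), but not in TPM as deposited. Cebpd was not called in KO, where it was 25.4, 19.0 and 20.6 TPM on D1 and 22.9, 15.9 and 12.7 TPM on D14. The acute phase genes had 8 of 9 called lower in WT and 7 of 9 in KO over this interval (1 was called higher in KO). The adipocyte targets of PPARγ and C/EBPα had 5 of 20 called higher and 1 lower in WT (median 0.17) and 11 of 20 higher and 0 lower in KO (median 1.12). The PPARα and PPARδ targets had 5 of 17 higher and 4 lower in WT and 7 of 17 higher and 4 lower in KO. Markers of inflammatory cells declined, and all 8 macrophage and all 5 neutrophil markers tested were called lower in both genotypes.

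KO and WT muscle were then compared on each day, the question of the study being what depends on Gsdme during repair. By limma, 0 of the 8 members were called on any day, on average over days or in the F test of whether the difference varied between days. The share of all genes called was 0.00636% on D1 and on average and 0% on the other days. Members with an unadjusted p under 0.05 numbered 1 on D1 (Cebpb), 0 on D4 and D7, 3 on D14 (Pparg, Cebpa and Cebpd), 2 on average (Cebpb and Cebpd) and 2 in limma's F test (Cebpa and Cebpb, adjusted p = 0.527 for both). Of all genes, 5.38% were under this unadjusted threshold on D1, 22.7% on D4, 3.06% on D7, 2.06% on D14, 3.54% on average and 7.65% in the F test. With library quality weights 1 member was called, Ppard on D7 (difference -0.40, adjusted p = 0.0136, against a difference of -0.15 without weights). The share of all genes called with these weights is not given here. Ppard was 21.1 TPM in KO D7 replicate 2, against 15.4 and 13.7 TPM in the other KO D7 libraries. On D4 and D7 the KO and WT libraries of all 8 members overlapped, whereas 14% and 16.5% of all genes did not overlap on these days.

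On D1, Cebpb was 48.2, 60.3 and 39.7 TPM in WT and 72.4, 138 and 121 TPM in KO. The KO libraries were all higher, as for 3.33% of all genes, and the mean in KO was 110.5 ± 34.2 against 49.4 ± 10.4 TPM (n = 3 each). The difference was 1.11 (SE 0.34, unadjusted p = 0.00389, adjusted p = 0.873). Its exact permutation p was 0.1, below which 3 against 3 libraries cannot go. The neutrophil marker sum was 579, 291 and 3462 TPM in these KO libraries and 277, 614 and 57.5 TPM in WT, which overlap. The neutrophil markers tested were all higher in KO, by 1.031 (Retnlg) to 2.055 (S100a8), and none was called. The macrophage sum was 1490, 1002 and 1288 TPM in KO and 948, 1519 and 480 TPM in WT, which also overlap. The part of cell composition in the D1 difference of Cebpb was not tested.

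On D14, 4 members stood higher in KO muscle without overlap. For Pparg, Cebpa, Cebpd and Mlxipl each KO library was above each WT library, as for 7.37% of all genes, and for Ppard each KO library was lower, as for 1.04%. No exact permutation p was under 0.1 on a single day. Cebpd was 8.63, 8.30 and 6.81 TPM in WT and 22.9, 15.9 and 12.7 TPM in KO. The gap between the groups was wide and the difference was 0.99 (SE 0.27, 95% confidence interval 0.42 to 1.57, unadjusted p = 0.0017, adjusted p = 0.555). Cebpa was 5.61, 7.55 and 3.85 TPM in WT and 8.09, 16.1 and 15.1 TPM in KO, so KO replicate 1 was only just above the highest WT library (difference 1.06, SE 0.38, interval 0.28 to 1.85, unadjusted p = 0.0107, adjusted p = 1). Pparg was 2.64, 4.25 and 3.39 TPM in WT and 4.91, 7.89 and 6.05 TPM in KO, with a mean of 3.43 ± 0.806 against 6.28 ± 1.5 TPM (difference 0.71, SE 0.28, interval 0.13 to 1.29, unadjusted p = 0.0185, adjusted p = 1).

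Mlxipl was 35.7, 21.3 and 28.6 TPM in WT and 39.1, 38.5 and 39.3 TPM in KO on D14. The KO libraries lay within 1 TPM of each other, and the difference of 0.47 (SE 0.43, unadjusted p = 0.296) was about its standard error. Ppard differed by -0.07 (SE 0.15), from 16.3 to 16.8 TPM in WT and from 15.2 to 16.3 TPM in KO. Srebf1 overlapped, at 12.7, 9.71 and 10.6 TPM in WT and 10.2, 18.4 and 13.9 TPM in KO (difference 0.31, SE 0.19), as did Ppara, at 5.05, 5.04 and 6.77 TPM in WT and 6.28, 3.19 and 4.34 TPM in KO (difference -0.27, SE 0.44). Cebpb means lay within their error of each other, 19.6 ± 4.02 TPM for WT against 20.2 ± 6.36 TPM for KO (difference 0.01, SE 0.34), and its sign flipped under 4 other settings.

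Averaged over the 4 days, Cebpd differed by 0.37 (SE 0.14, unadjusted p = 0.0137, adjusted p = 0.861, exact permutation within days p = 0.0334) and Cebpb by 0.38 (SE 0.17, unadjusted p = 0.0355, adjusted p = 0.861, exact permutation p = 0.0777). The other 6 members had exact permutation p-values from 0.095 (Mlxipl) to 0.538 (Srebf1), and these 8 p-values are not adjusted for each other.

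**Figure D3:**
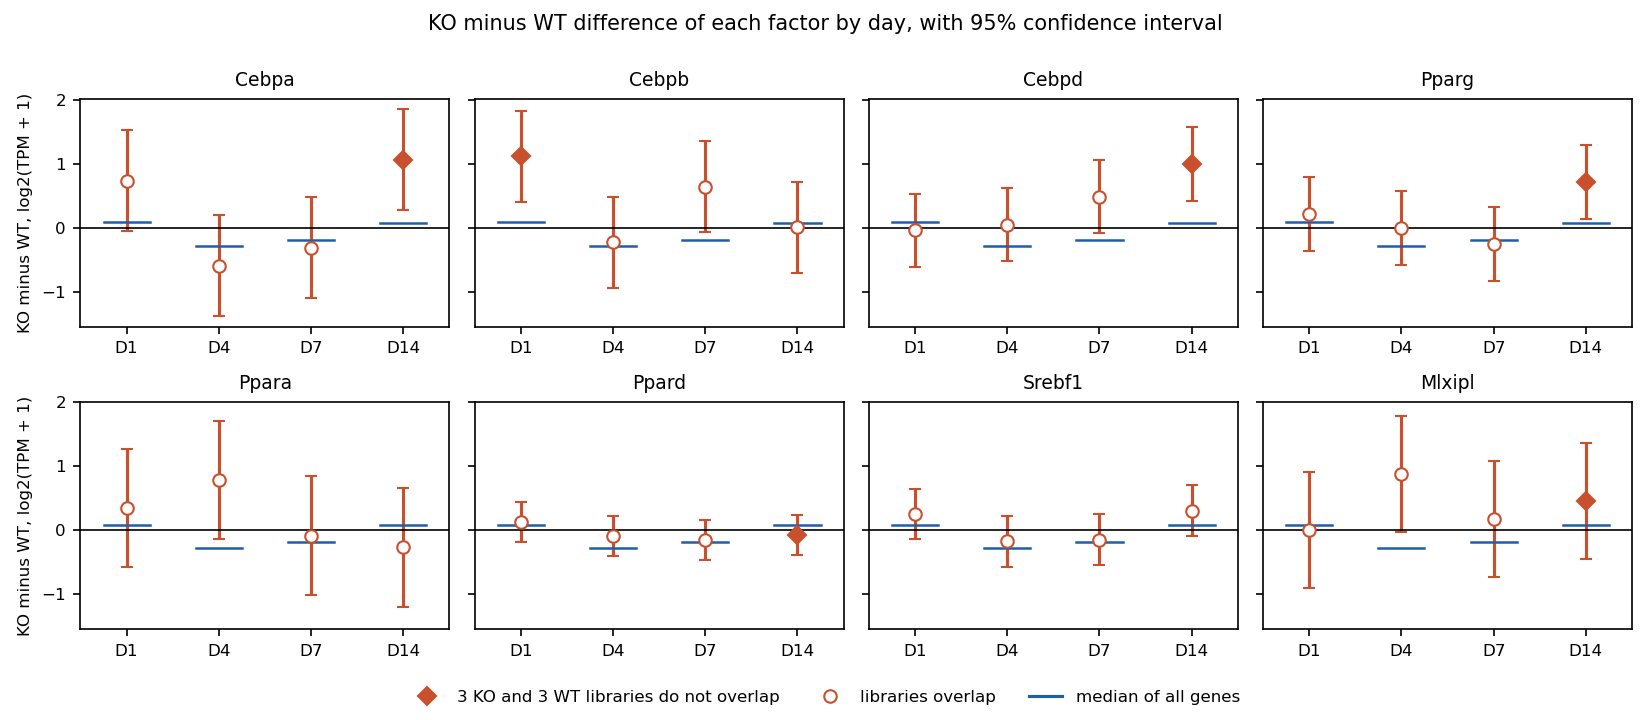
KO minus WT difference of each factor on the log2(TPM + 1) scale (vertical axis) on D1, D4, D7 and D14, with its 95% confidence interval; filled diamonds mark days on which the 3 KO and 3 WT libraries do not overlap, and blue lines give the median of all genes (0.09, -0.28, -0.19 and 0.08). Filled diamonds above 0 stand at D1 for Cebpb and at D14 for Cebpa, Cebpd, Pparg and Mlxipl, and none of the differences is called.

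Adipocyte markers differed in the same direction on D14. Their summed TPM over 8 genes was 391, 455 and 382 in WT and 728, 1973 and 1442 in KO, with 667, 823 and 663 in control muscle of the other table. The order of the KO libraries, with replicate 1 lowest and replicate 2 highest, was that of Pparg, Cebpa and Srebf1. Cebpb, Cebpd and Ppara were highest in replicate 1, and Ppard and Mlxipl in replicate 3. Adipoq was 2.65, 4.92 and 2.20 TPM in WT and 18.2, 72.2 and 48.9 TPM in KO (difference 3.33, SE 0.77, adjusted p = 0.245). Plin1, the coat protein of adipocyte lipid droplets, was 1.41, 1.98 and 1.12 TPM in WT and 7.50, 25.1 and 18.9 TPM in KO (difference 2.73, adjusted p = 0.245). All 8 adipocyte markers were higher in KO, with an unadjusted p under 0.05 in 8 and 0 called (median 2.95, against 0.08 for all genes). Between D1 and D14, 6 of 8 were called higher in KO and 0 of 8 in WT (8.43% and 5.15% of all genes). The difference between these counts was not tested.

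Fibro-adipogenic progenitor markers overlapped between genotypes. Their sum over 8 genes was 1037, 1476 and 760 TPM in WT D14 and 955, 1130 and 1204 TPM in KO D14, and the median difference was -0.02. The macrophage sum was 205, 341 and 118 TPM in WT and 185, 209 and 251 TPM in KO. The sum of 7 neutrophil markers was low in both, at 1.75, 2.37 and 1.68 TPM in WT and 4.36, 7.46 and 5.98 TPM in KO. Each KO library was nevertheless above each WT library. Myofibre markers overlapped, at 110600, 119300 and 110200 TPM in WT and 100500, 111400 and 110300 TPM in KO. Hepatocyte markers summed to at most 3.71 TPM in injured muscle. Of the 4 brown adipocyte markers tested, 0 had an unadjusted p under 0.05, and Ucp1 was not among the genes tested. Cox8b, among these 4, had a mean of 2099 TPM in WT D14 and 2275 TPM in KO D14. It is also a muscle form of a cytochrome c oxidase subunit, so here it does not mark brown adipocytes alone. Whether the D14 differences of Pparg, Cebpa and Cebpd come from adipocytes was not tested.

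**Figure D4:**
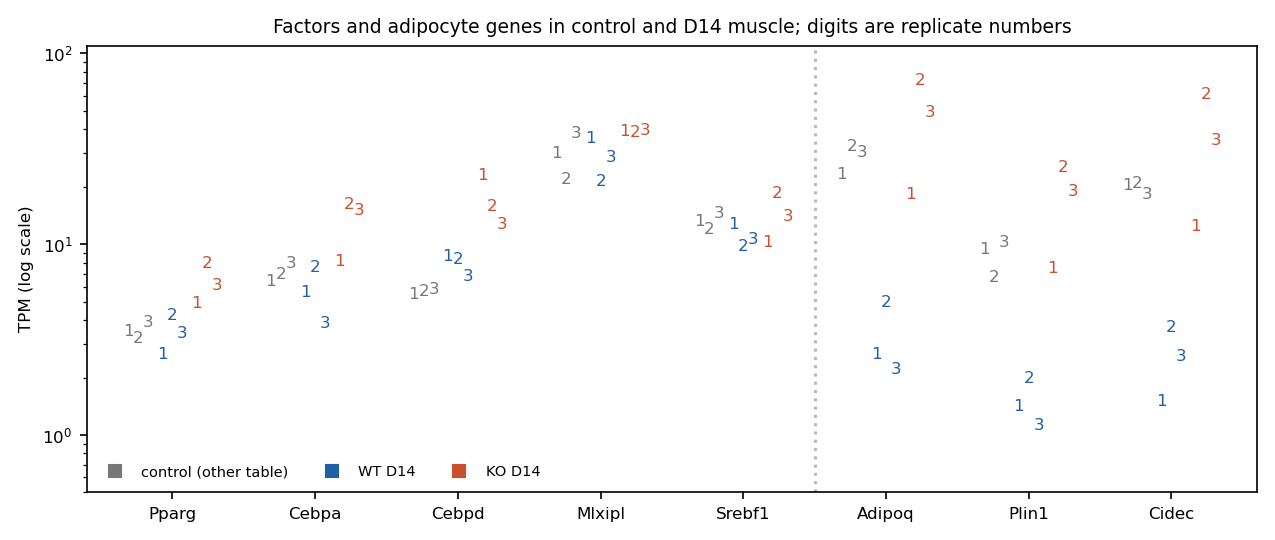
TPM (log scale) of 5 factors and, right of the dotted line, of 3 adipocyte genes in control, WT D14 and KO D14 muscle; each digit is 1 library and names its replicate. KO libraries of Pparg, Cebpa and Cebpd lie above WT libraries, by less than those of Adipoq, Plin1 and Cidec, and WT D14 libraries of the adipocyte genes lie below control libraries of the other table.

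Target genes on D14 were described in the same way, with 0 called in each list and 2.06% of all genes at an unadjusted p under 0.05. The median difference of all genes was 0.08. The share of all genes higher in KO is not given here, so counts of higher genes in the lists cannot be compared with it. Of 20 adipocyte targets of PPARγ and C/EBPα, a list that includes the 8 adipocyte markers, 19 were higher in KO and 12 had an unadjusted p under 0.05 (median 0.77). Of the targets that are not among the markers, Lipe, hormone-sensitive lipase, had a difference of 0.97 (SE 0.24, adjusted p = 0.361) and Pck1, at 0.81, 1.84 and 1.26 TPM in WT and 8.80, 6.78 and 16.2 TPM in KO, one of 2.27 (SE 0.6, adjusted p = 0.468). Of 15 SREBP-1 and ChREBP targets, 14 were higher and 6 had an unadjusted p under 0.05 (median 0.37). Scd1 was 10.2, 17.4 and 11.1 TPM in WT and 49.1, 171 and 128 TPM in KO (difference 2.93, SE 0.46, adjusted p = 0.0646). Fasn, fatty acid synthase, was 9.85, 12.98 and 7.03 TPM in WT and 21.4, 160.5 and 65.8 TPM in KO (difference 2.54, SE 0.5, adjusted p = 0.22). These 2 enzymes had the largest differences of the list, several times those of Srebf1 (0.31) and Mlxipl (0.47). The list median of 0.37 lay between the differences of the 2 factors. Srebf1 libraries overlapped, and the Mlxipl difference was about its error.

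PPARα and PPARδ targets were higher in KO in 17 of 17 genes, with an unadjusted p under 0.05 in 1 and a median of 0.29, against 0.08 for all genes. Acute phase genes were higher in 7 of 9 (median 0.22), and the 2 with an unadjusted p under 0.05 were Hp, haptoglobin, at 2.72, 7.61 and 4.82 TPM in WT and 31.0, 34.9 and 51.4 TPM in KO (difference 2.78, SE 0.62, adjusted p = 0.223), and Orm1, orosomucoid, at 0.51, 1.08 and 0.15 TPM and 3.62, 15.7 and 7.94 TPM (difference 2.53, SE 0.51, adjusted p = 0.22). Both are acute phase proteins of liver that adipose tissue also makes. Lcn2 and Saa3, high on D1, were at most 1.77 and 0.31 TPM in D14 muscle of either genotype. PPAR partners (9 of 13 higher, median 0.09), other family members and liver X receptors (8 of 10 entries, 0.13), SREBP processing genes (5 of 6, 0.11), other activators (8 of 11, 0.11) and inhibitors of adipogenesis (5 of 10, -0.01) had medians near that of all genes and 0 genes with an unadjusted p under 0.05.

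**Figure D5:**
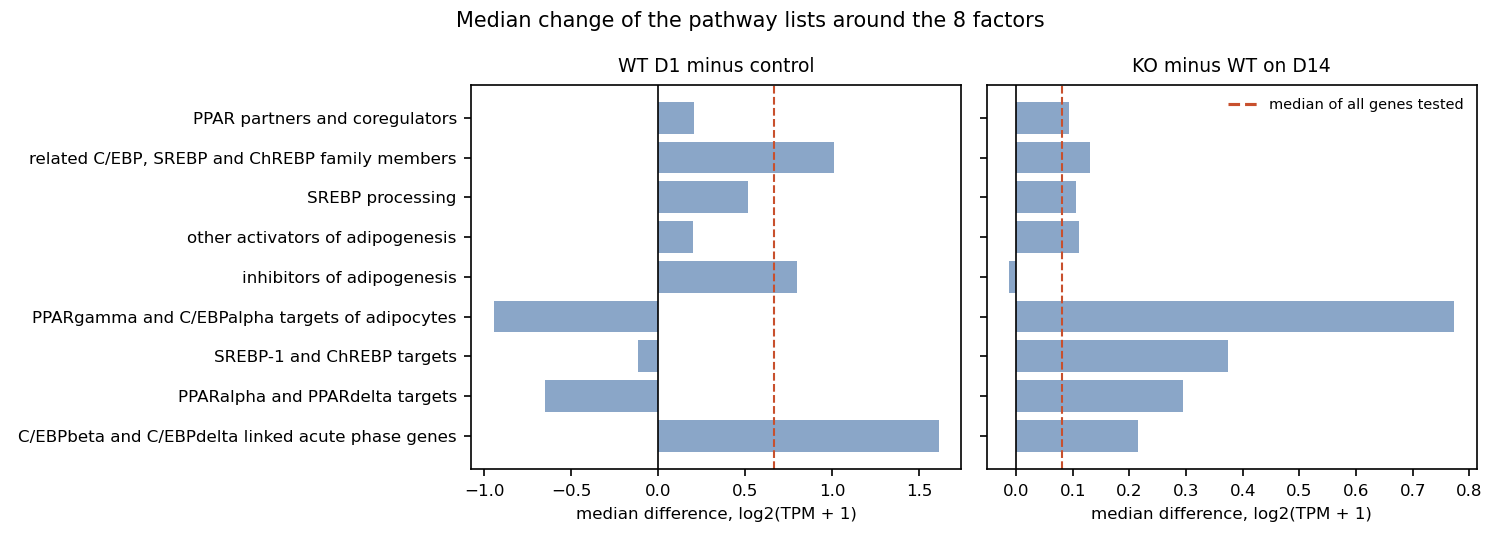
Median difference of each gene list on the log2(TPM + 1) scale (bars) for WT D1 minus control, left, and KO minus WT on D14, right; the dashed line is the median of all genes tested (0.66 and 0.08). Acute phase genes have the highest bar on the left (1.61) and adipocyte targets the highest on the right (0.77).

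Genes with the pattern most like each member over the 24 injured libraries were listed by Pearson's r on log2(TPM + 1). These are correlations over libraries that share day and cell composition, given without a test. Cebpa was closest to Tkt, the transketolase of the pentose phosphate pathway (r = 0.979), and close to Adap1 (0.974). Cebpb was closest to Ybx1 (0.923), Depdc7 (0.908) and Mmp8, the neutrophil collagenase (0.903), and Cebpd to Errfi1 (0.857), Gm8797 (0.845) and Nfkbia, the inhibitor of NF-κB (0.817). Pparg was closest to Elovl6, a fatty acid elongase (0.848), Ddx20 (0.828) and Secisbp2l (0.821). Ppara was closest to Lrrc52 (0.882), Phyh, a peroxisomal enzyme of fatty acid α-oxidation (0.877), and Pde4c (0.873), and Ppard to Rrp9 (0.828), Nfkbib (0.825) and F7 (0.824). Srebf1 was closest to Slc25a10, the mitochondrial dicarboxylate carrier (0.918), Fah (0.904) and Acox3 (0.90). Mlxipl was closest to Car14 (0.959) and to Cox8b (0.954) and Cox6a2 (0.953), muscle forms of cytochrome c oxidase subunits. Among the members, r was highest for Cebpb with Ppard (0.72), Ppara with Mlxipl (0.71) and Cebpb with Cebpd (0.71) and lowest for Cebpa with Ppara (-0.70) and Cebpa with Mlxipl (-0.69).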

How the data were processed

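Bulk RNA-seq libraries (27) were analysed from TPM that the authors deposited in 2 tables, 1 of 24 injured libraries and 1 of 3 control and 3 WT D1 libraries. Libraries were made with a SMARTER mRNA kit per the labels, and the build named there is mm10. The aligner, counting tool, strand setting and filters are not given in the sources used here. TPM are shares of a total, so a gain in abundant genes lowers all others, and they hold no read number. The deposited group means matched the means of their libraries and were not used.

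Genes of at least 1 TPM in at least 3 libraries were tested as log2(TPM + 1), which understates changes of low genes, with limma 3.58.1 in R 4.3.3 (group means, empirical Bayes with a variance trend, Benjamini-Hochberg over all genes tested). Single values were also tested by exact two-sided permutation of genotype, for the mean over days within days. In simulated data for KO minus WT on D14 (15718 genes), 58% of genes changed by 1 and 87% of those changed by 2 on the log2 scale were called, with 8 false calls. The simulation used independent normal errors around 1 mean per gene, with changes planted in KO D14 only. It held no differences between days or in cell composition, so these percentages are not the power in the real libraries. The real D14 comparison called 0 genes, and Adipoq at 3.33 was not called. The contrasts of KO and WT steps between neighbouring days were added after seeing the data. The 8 members and 16 gene lists were chosen with earlier results of these data known. Named genes are the members, Gsdme, marker genes, up to 4 genes per list with the lowest p among those called, and the 3 genes most like each member, of which 1 is not reported here. Where a list had no call on D14, genes were named after their values were seen. Alternatives were another pseudocount (0.1), no filter or one of 5 TPM, median-of-ratios scaling, quantile normalization, removal of the 50 most abundant genes, library quality weights, a replicate block, a fit of the libraries of 1 day and leaving out each library in turn.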

Additional observations from a re-analysis of the deposited data

How the results depend on the processing

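The calls of Cebpa, Cebpb, Cebpd and Ppara between WT D1 and control held in every alternative run, 8 settings (7 for Ppara, which a filter of 5 TPM removed) and 6 fits without 1 library. The number of members called moved by more than 1.5 times as follows. With quality weights it was 7 for WT D1 minus control, 0 for WT D4 minus D1, 7 for WT D7 minus D4, 4 for WT D14 minus D7, 1 for KO D4 minus D1, 1 for KO D14 minus D7, 7 for KO D14 minus D1 and 1 for KO minus WT on D7. With no filter it was 1 for WT D4 minus D1, 0 for WT D7 minus D4, 1 for WT D14 minus D7 and 1 for KO D4 minus D1. With median-of-ratios scaling and with quantile normalization it was 1 for WT D7 minus D4, 0 for WT D14 minus D7 and 3 for WT D14 minus D1, and with the 50 most abundant genes removed it was 0, 1 and 3. Across these 3 scalings, 9.68% to 14.35% of all genes were called for WT D7 minus D4. The share was 13.4% to 15.9% for WT D14 minus D7 and 34.7% to 38.8% for WT D14 minus D1. Shares under quality weights, no filter, a replicate block or 1 library left out are not given here. The counts of members in those fits therefore cannot be compared with all genes. The sign reversed for Cebpb in KO minus WT on D14 (-0.10, -0.093, -0.062 and -0.089 with median-of-ratios, quantile, abundant genes removed and quality weights), for Ppard in KO minus WT over all days (0.038, 0.027, 0.016 and 0.0036), for Ppard in WT D14 minus D1 (0.13, 0.21 and 0.038 with the 3 scalings) and for Ppard in KO D14 minus D1 (0.023 with quantile normalization). The cause was not tested. Without 1 library the number called was 4 to 6 for WT D1 minus control, 1 to 3 for WT D4 minus D1, 0 to 3 for WT D7 minus D4, 0 to 2 for WT D14 minus D7, 4 to 6 for WT D14 minus D1, 1 to 3 for KO D4 minus D1 and 3 to 5 for KO D14 minus D1, while it stayed 0 for each KO minus WT comparison. Cebpb in KO minus WT on D14 was then -0.19 to 0.26. Same-numbered libraries did not deviate together throughout (correlations of their deviations from -0.40 to 0.39 in the injured table and from 0.0021 to 0.061 between control and WT D1). The control muscle was contralateral, but the labels do not say that a number marks a mouse, so the numbers were not taken to pair the libraries. With a replicate block the number called was 5 for WT D1 minus control and 3 for KO D4 minus D1, and the block ended no call of a member. TPM hold no depth, so no detection limit can be given.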
